A study of Mus musculus with 8 samples.

Results

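The genes described here are 9 markers of pyramidal neurons, the glutamatergic projection neurons of the hippocampus and the cerebral cortex: Wfs1, Pou3f1, Mpped1, Neurod6, Fibcd1, Bok, Spock1, Man1a and Cpne4. They were chosen by name, with earlier results of these data known. Every probe set that the array annotation assigns to 1 of them alone was taken, which gave 13 probe sets of 45037 for 9 of 18193 named genes. No probe set that names several genes includes a member. Of the 13 probe sets, 10 varied between the arrays, with an SD over all arrays above 0.01, and they measured 8 of the 9 genes. The other 3 are treated as unmeasured, because the summary method draws a probe set without shared signal to a constant.

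Hippocampal RNA of male 3 × Tg-AD mice was measured on 8 arrays. Both groups carried the 3 transgenic alleles APP Swe, tau P301L and presenilin 1 M146V, and both were 10 months old. The control group (4 arrays) ate the base diet, and the RA group (4 arrays) ate the same diet with 0.5% rosmarinic acid, a plant polyphenol, for 8 months. No array of mice without the transgenes was used here, so the comparison is of diets within a model of Alzheimer's disease, and the Methods mention pooled RNA without settling whether an array is 1 mouse. The p-values below therefore measure only the spread between these samples.

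Pyramidal neurons of the fields CA1, CA2 and CA3 form the main excitatory chain of the hippocampus, into which the granule cells of the dentate gyrus project. Their genes are not shared evenly along the chain: Wfs1, Pou3f1 and Fibcd1 are known as markers of CA1, Bok of CA3, and Neurod6 of pyramidal neurons of the hippocampus and neocortex at large. The members have unlike roles in the cell. Neurod6 and Pou3f1 are transcription factors, Wfs1 and Man1a act in the endoplasmic reticulum and Golgi, Fibcd1 and Spock1 sit at or outside the cell surface, and Bok, Cpne4 and Mpped1 are intracellular proteins of other kinds.

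Promoter sequence was matched to 8 of the 9 members, in 10 windows of 250 bases before the annotated start (RefSeq, GRCm38.p6). The windows of Neurod6 and Wfs1 are shown as examples of the members that were lowest in control 1 and RA 2 (Neurod6) and of those that were not (Wfs1). The Neurod6 window lies at chr6:55681264-55681513 on the minus strand and the Wfs1 window at chr5:36988983-36989232 on the minus strand. Both are written 5′ to 3′ in the direction of transcription, and capitals mark E-boxes, the CANNTG motif bound by basic helix-loop-helix factors such as Neurod6.
Neurod6: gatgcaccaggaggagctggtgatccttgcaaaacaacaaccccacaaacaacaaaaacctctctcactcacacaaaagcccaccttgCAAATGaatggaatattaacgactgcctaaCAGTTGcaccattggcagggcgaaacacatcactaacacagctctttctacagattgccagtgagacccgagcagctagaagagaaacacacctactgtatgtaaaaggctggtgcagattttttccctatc
Wfs1: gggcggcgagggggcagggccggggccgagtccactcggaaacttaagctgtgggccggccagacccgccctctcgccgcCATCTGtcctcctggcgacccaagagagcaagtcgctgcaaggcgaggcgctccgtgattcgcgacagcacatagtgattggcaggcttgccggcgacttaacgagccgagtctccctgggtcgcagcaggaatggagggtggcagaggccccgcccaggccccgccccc
The Neurod6 window held 2 E-boxes and the Wfs1 window 1. The motif, the same pattern on both strands, was found in 5 of the 10 member windows and in 66.2% of 32851 windows of all genes, and 31.8% of all windows held at least as many as that of Neurod6. Base composition also differed, with 46% G and C in Neurod6 and 69.6% in Wfs1, against a median of 52.4% over all windows. A match of letters is a description and no site of binding.

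The arrays correlated at 0.989 to 0.998 with each other over all probe sets. In 24.1% of the 3758 probe sets that varied, control 1 and RA 2 were the 2 lowest of the 8 arrays, and in 19.4% they were the 2 highest. Control 3 was the lowest array in 33.8%. The members have to be read against these arrays, since differences between single arrays touched much of the measured transcriptome. Choroid plexus transcripts also differed widely, with Ttr, the transthyretin gene of that tissue, at 8.54, 8.57, 13.39 and 8.90 in control 1 to 4 and 12.05, 7.67, 13.12 and 13.26 in RA 1 to 4 (log2).

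No member differed between the diets beyond the spread between arrays when each probe set was weighed by its own spread. limma with Benjamini-Hochberg adjustment over all probe sets called 0 of the 10 measured member probe sets, with adjusted p from 0.776 to 0.973, and 0% of the 45037 probe sets tested. None of the 10 had an unadjusted p under 0.05, against 4553 of the 45037 probe sets tested, whose lowest adjusted p was 0.252. Those 4553 include nearly constant probe sets, so the bases of these counts differ. The rank product, which ranks all 16 array-to-array differences across the probe sets and was read at a threshold of 0.05 on its proportion of false positives, called Neurod6 lower and no member higher. It called 0.577% of all probe sets lower and 0.915% higher. Among the probe sets that varied these shares were 6.92% lower and 11% higher, so 1 lower call in 10 is near the background. In none of the 10 did the control and RA arrays part without overlap, as they did in 5.59% of the probe sets that varied.

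The median log2 fold change (RA minus control) of the 10 measured probe sets was -0.053, and in 2 of 10 the RA mean was the higher. This median turned positive without control 2 (0.064), control 3 (0.016) or RA 2 (0.087), and was -0.22 without control 1. Over the 3758 probe sets that varied, the median was 0.069 and the RA mean was the higher in 73.1%. The members varied more between arrays than most, with a median SD of 0.350 against 0.189. In bulk tissue, fewer cells of a type and less RNA per cell cannot be told apart.

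**Figure D1:**
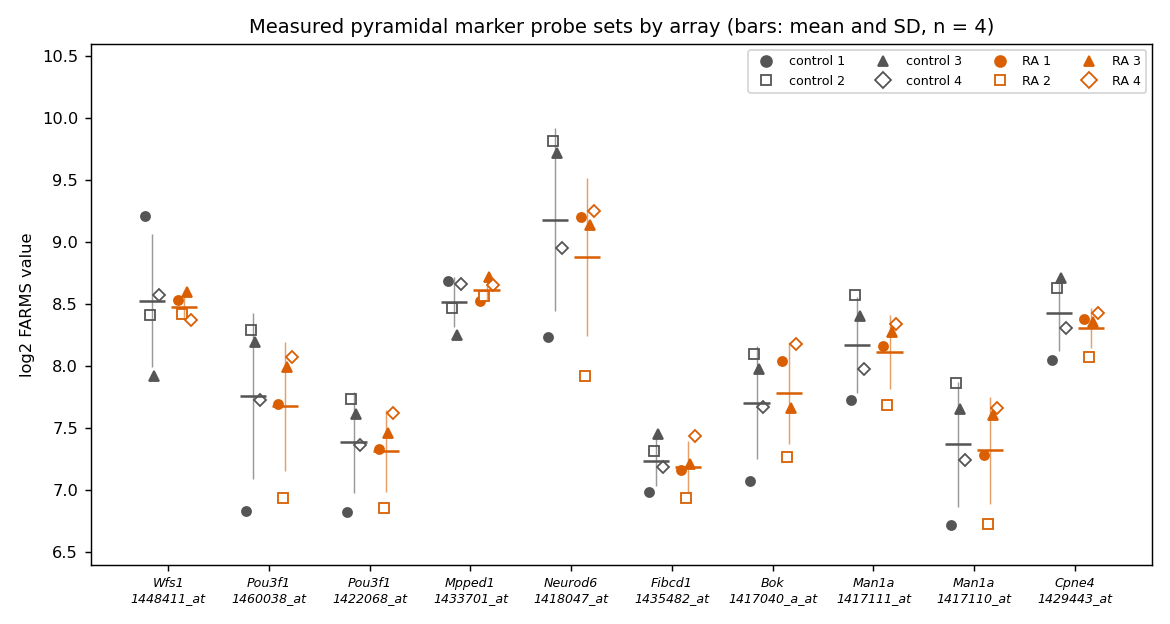
Log2 values of the 10 measured probe sets in each array, with control arrays in grey and RA arrays in orange. Horizontal bars give the group mean and vertical bars the SD (n = 4). Control 1 and RA 2 lie lowest in Neurod6, Pou3f1, Fibcd1, Bok, Man1a and Cpne4, while Wfs1 is highest in control 1. Heights of different probe sets are not comparable as transcript amounts.

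Neurod6, a basic helix-loop-helix transcription factor that marks differentiated pyramidal neurons, was the member with the widest spread. Its probe set 1418047_at read 8.24, 9.82, 9.72 and 8.96 in control 1 to 4 and 9.20, 7.92, 9.14 and 9.25 in RA 1 to 4. Low values came from control 1 and RA 2, the other 3 RA arrays lay within 9.14 to 9.25, and the groups overlapped. The highest and the lowest array were 1.89 apart on the log2 scale, a 3.71-fold range, and the SD of 0.659 exceeded that of 98.1% of the probe sets that varied. The group means were 9.18 ± 0.738 in the control group and 8.88 ± 0.639 with RA (SD, n = 4). The log2 fold change was -0.30, with SE 0.468 and adjusted p = 0.851 in limma. The 95% interval of this difference ran from -1.42 to 0.82.

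The rank product called Neurod6 lower in the RA group at an estimated proportion of false positives of 0.0131. This call was lost without control 2 (0.451), without control 3 (0.217) and without RA 2 (0.265), and without RA 2 the difference was 0.017. It was also lost when only probe sets that varied were ranked (0.274) and, in an alternative added after the values were seen, without control 1 and RA 2 together (0.0897), where the log2 fold change was still -0.30 with 3 arrays per group.

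Pou3f1 encodes a POU-domain transcription factor, and in the adult hippocampus its transcript is best known from CA1. Probe set 1460038_at read 6.83, 8.29, 8.19 and 7.73 in control 1 to 4 and 7.70, 6.94, 7.99 and 8.08 in RA 1 to 4. As in Neurod6, control 1 and RA 2 were the 2 lowest arrays and the groups overlapped. The means of 7.76 ± 0.668 and 7.68 ± 0.517 (SD, n = 4) gave a log2 fold change of -0.085 with SE 0.405 and adjusted p = 0.959, and an interval from -1.06 to 0.89. The other Pou3f1 probe set, 1422068_at, ran from 6.83 in control 1 to 7.74 in control 2, with RA 2 at 6.85. The 2 probe sets correlated at r = 0.995 over the 8 arrays, so both ordered the arrays alike.

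Wfs1 encodes wolframin, a membrane protein of the endoplasmic reticulum whose loss causes Wolfram syndrome. Its probe set 1448411_at read 9.21, 8.41, 7.92 and 8.57 in control 1 to 4 and 8.53, 8.42, 8.60 and 8.37 in RA 1 to 4. Here control 1 was the highest array and control 3 the lowest, and the 4 RA arrays lay between them. The means were 8.53 ± 0.534 in the control group and 8.48 ± 0.101 with RA. The log2 fold change was -0.049, with SE 0.260 and adjusted p = 0.965. Its interval ran from -0.67 to 0.58. Without control 1 the difference was 0.18, in favour of the RA group.

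Man1a encodes a Golgi alpha-mannosidase that trims N-linked glycans. Probe set 1417111_at read 7.73, 8.58, 8.41 and 7.98 in control 1 to 4 and 8.16, 7.68, 8.27 and 8.34 in RA 1 to 4. RA 2 was lowest and control 1 next. The log2 fold change was -0.057 with SE 0.234 and adjusted p = 0.952. The other probe set of the gene, 1417110_at, had both control 1 and RA 2 at 6.72 and its highest array, control 2, at 7.87. The pair correlated at r = 0.984.

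Fibcd1, a membrane receptor with a fibrinogen-like domain, read 6.98, 7.31, 7.45 and 7.19 in control 1 to 4 and 7.16, 6.94, 7.21 and 7.44 in RA 1 to 4 (1435482_at). The range was narrow, and again RA 2 and control 1 were the lowest arrays. The log2 fold change was -0.045 with SE 0.136 and adjusted p = 0.931, and the interval ran from -0.37 to 0.28. Spock1, which encodes the proteoglycan testican-1, was not measured: its probe sets 1419672_at and 1419673_at stood at 9.43 and 7.29 in every array with SDs of 0.000186 and 0.000365. Nothing about a change of Spock1 can be read from them.

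Bok, a Bcl-2 family member, read 7.08, 8.10, 7.98 and 7.67 in control 1 to 4 and 8.04, 7.26, 7.66 and 8.18 in RA 1 to 4 (1417040_a_at). The lowest arrays were again control 1 and RA 2, but the RA mean was the higher, at 7.79 ± 0.411 against 7.71 ± 0.457. The log2 fold change was 0.081 with SE 0.295 and adjusted p = 0.946. Cpne4, a copine that binds phospholipids in response to calcium, read 8.05, 8.63, 8.71 and 8.31 in control 1 to 4 and 8.38, 8.07, 8.35 and 8.43 in RA 1 to 4 (1429443_at). Its log2 fold change was -0.12 with SE 0.165 and adjusted p = 0.834. The other Cpne4 probe set, 1453888_at, was unmeasured, with a mean of 5.67 and an SD of 0.000231.

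Mpped1, a protein with a metallophosphoesterase domain, was the steadiest of the measured members. It read 8.69, 8.47, 8.26 and 8.66 in control 1 to 4 and 8.53, 8.57, 8.72 and 8.65 in RA 1 to 4 (1433701_at). Control 3 was the lowest array and RA 3 the highest, while control 1 and RA 2 were not low. Its log2 fold change of 0.098 had the smallest SE among the measured members, 0.104, and its adjusted p of 0.776 in limma was the lowest of them. The interval from -0.15 to 0.35 was also the narrowest among the measured members.

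**Figure D2:**
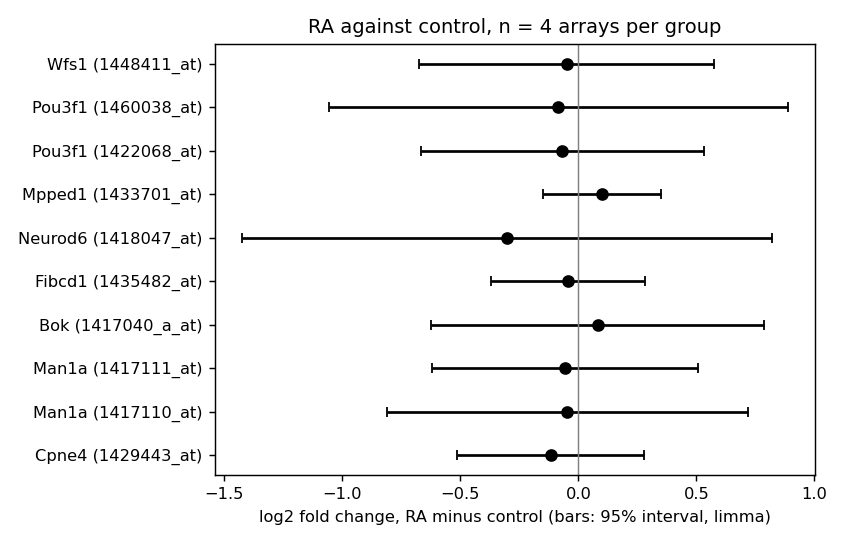
Log2 fold change (RA minus control) of each measured probe set, with the 95% interval from limma (n = 4 arrays per group). Every interval spans 0, from the narrowest in Mpped1 (-0.15 to 0.35) to the widest in Neurod6 (-1.42 to 0.82).

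The direction of these differences rested on single arrays in most members. On leaving out each array in turn, the sign of the fold change turned at least 1 time in 6 of the 8 genes, and was kept in Mpped1 (higher) and Cpne4 (lower).

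While the 2 diets overlapped in every member, most members moved together over the arrays. In Neurod6, Pou3f1, Man1a, Fibcd1, Bok and Cpne4, control 1 and RA 2 were the 2 lowest arrays. All 15 pairs among these 6 genes correlated positively over the 8 arrays, with Pearson r from 0.850 to 0.966 and Spearman rho from 0.690 to 0.976. With the values centred on the group means, r was 0.883 to 0.977. Without control 1 and RA 2, the arrays farthest from the median of the members' mean level, the 15 correlations stayed positive with r from 0.437 to 0.962. The 6 genes were set apart by their low values in control 1 and RA 2 in these same data. The sign of the correlations within the 6, and towards Wfs1 and Mpped1, follows in part from that grouping. The members were also chosen together, with earlier results of these data known. The p-values given here are unadjusted over the 28 pairs computed and only describe the pairs.

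The closest pair was Neurod6 with Man1a, at r = 0.966 (exact permutation p = 7.44e-05) and rho = 0.976 (exact permutation p = 0.000397), with r = 0.902 without the 2 arrays farthest from the median. Neurod6 with Cpne4 correlated at r = 0.964 (exact permutation p = 0.00109) and rho = 0.952 (exact permutation p = 0.00114), and r was 0.962 without those arrays. Pou3f1 with Bok, at r = 0.895 (exact permutation p = 0.00526) and rho = 0.738 (exact permutation p = 0.0458), dropped to 0.437 without them. The shared order of arrays was thus carried by control 1 and RA 2 to differing degrees in different pairs.

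Wfs1 and Mpped1 went the other way. All 12 pairs between them and the other 6 genes correlated negatively, with r from -0.752 to -0.396, and the lowest was Wfs1 with Cpne4 (exact permutation p = 0.0277, rho = -0.810 with exact permutation p = 0.0218). Without the 2 arrays farthest from the median of the first gene of a pair, r lay between -0.475 and 0.255 and 4 of the 12 were positive, so their sign depends on which arrays are left out. Without control 1 and RA 2, all 12 stayed negative, with r from -0.894 to -0.395. For Wfs1 with Cpne4, r was -0.169 without control 1 and control 3. Wfs1 with Mpped1 correlated at r = 0.746 (exact permutation p = 0.0590) and rho = 0.810 (exact permutation p = 0.0218), with r = 0.475 without control 1 and control 3 and 0.874 without control 1 and RA 2.

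**Figure D3:**
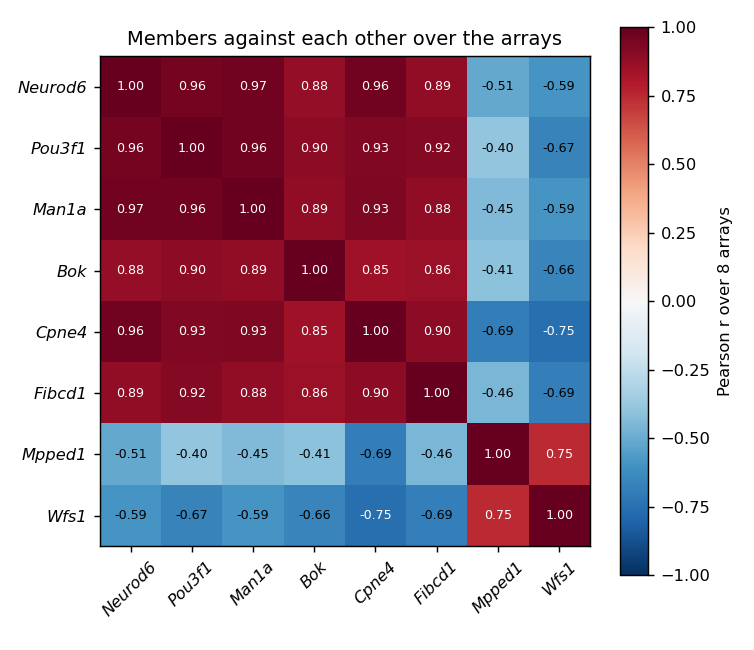
Pearson r over the 8 arrays between the measured members, with 1 probe set per gene, from -1 (blue) to 1 (red). The block of 6 genes from Neurod6 to Fibcd1 is positive throughout (0.850 to 0.966), and its 12 pairs with Mpped1 and Wfs1 are negative (-0.752 to -0.396). The block was set apart in these same values.

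To summarise each array, the value of each gene was centred on its mean over the arrays. The centred values were averaged over the 8 measured genes, Wfs1 and Mpped1 included. This mean was -0.311, 0.290, 0.168 and -0.028 in control 1 to 4 and 0.053, -0.435, 0.082 and 0.181 in RA 1 to 4. Within it, Wfs1 and Mpped1 stood at 0.709 and 0.117 in control 1, and at -0.081 and -0.0014 in RA 2. Control 1 and RA 2 were the lowest array of their groups, and the group means of 0.0297 ± 0.262 in control and -0.0297 ± 0.276 in RA (SD, n = 4) lay well within each other's spread.

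Of 50 other genes of pyramidal and excitatory forebrain neurons, 45 had a probe set and 32 were measured. Among all probe sets that varied, the rank product called 11% higher and 6.92% lower. Of these 32 genes it called 6 higher and 1 lower, limma called none, and the median log2 fold change was 0.036. The genes called higher were Slc17a6, a vesicular glutamate transporter (0.38, SE 0.290), Nr4a1, an activity-induced nuclear receptor (0.33, SE 0.128), the transcription factor Mef2c (0.32, SE 0.351), Cacng5 (0.29, SE 0.150), the calmodulin-binding Pcp4 (0.29, SE 0.156) and the homeobox factor Cux1 (0.14, SE 0.0424). Slc17a6 is also in the list of thalamic neurons. Nptx1, a secreted pentraxin of excitatory synapses, was called lower: it read 9.79, 10.00, 10.10 and 9.80 in control 1 to 4 and 9.58, 9.36, 9.64 and 9.78 in RA 1 to 4. All 4 RA arrays lay below all 4 control arrays, but only just (9.78 in RA 4 against 9.79 in control 1). The group means differed by a log2 fold change of -0.33, with SE 0.113 and adjusted p = 0.427 in limma. The groups parted in 2 of the 32 genes, lower in Nptx1 and higher in Cux1. This is near the 5.59% of the probe sets that varied. Cux1 also parted only just (5.237 in RA 1 against 5.231 in control 4).

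Control 1 and RA 2 were the 2 lowest arrays in 12 of the 32 other pyramidal genes and the 2 highest in 5, so the genes of this cell class did not share 1 course. Among those low in these arrays was Hpca, the neuronal calcium sensor hippocalcin. One of its probe sets had the profile most like the members' mean, at r = 0.996 over the 8 arrays, and read 8.25, 9.77, 9.56 and 8.92 in control 1 to 4 and 9.24, 8.07, 9.32 and 9.57 in RA 1 to 4. Next came Trim59 (0.988), the Ras activator Rasgrp1 (0.988), the myelin gene Mobp (0.985) and Rprml (0.985). Most opposed were the long noncoding RNAs Meg3 (-0.994) and Miat (-0.980), followed by Cpne5 (-0.978), Nr2f2 (-0.977) and the imprinted gene Nnat (-0.977). Likeness at this level was common: of 3399 probe sets compared, 373 had r above 0.9 and 192 below -0.9.

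Most genes of the dentate granule cell and oligodendrocyte lists followed the same arrays. Over all probe sets that varied, control 1 and RA 2 were the 2 lowest in 24.1% and the 2 highest in 19.4%. In the list of dentate granule cells, control 1 and RA 2 were the 2 lowest arrays in 9 of 12 measured genes. They were the 2 highest in 2, Calb1 and Penk, and Penk is also in the striatal list. The mean of the centred values of the list was -0.348, 0.149, 0.234 and 0.0997 in control 1 to 4 and 0.0747, -0.411, 0.0517 and 0.149 in RA 1 to 4. In the list of oligodendrocytes, the myelinating glia, the same 2 arrays were lowest in 13 of 14 and the 2 highest in 0. The mean there was -0.631, 0.486, 0.342 and -0.340 in control 1 to 4 and 0.270, -0.734, 0.149 and 0.458 in RA 1 to 4. These lists shared no gene with the members, and their part in the members' levels was not tested.

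The counts of calls that follow stand beside shares of 6.92% lower and 11% higher among all probe sets that varied. The rank product called 2 of the 12 dentate genes lower, Dsp (-0.17) and Lct (-0.19), with a median over the list of -0.044. Of the 14 oligodendrocyte genes it called Olig1 higher (0.26) and Cldn11 lower (-0.10), with a median of 0.078. Control 1 and RA 2 were the 2 lowest arrays in 2 of 10 measured interneuron genes and the 2 highest in 5, and 3 were called higher (Tac1, Dlx1 and Calb2), with a median of 0.205. Tac1 is also in the striatal list and Calb2 in the thalamic list. In thalamic neurons control 1 and RA 2 were the 2 lowest in 0 of 12 and the 2 highest in 1. There, 6 were called higher (Zic1, Slc17a6, Tcf7l2, Prkcd, Calb2 and Plekhg1), with a median of 0.240. The thalamic mean was highest in RA 2, at 0.430, where the members' mean was lowest. In control 1, where the members' mean was also low (-0.311), the thalamic mean was -0.092. In RA 1 it was 0.351, with the members' mean at 0.053. Thalamic transcripts thus varied between arrays of RNA labelled as hippocampus, and their part in the members' levels was not tested.

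**Figure D4:**
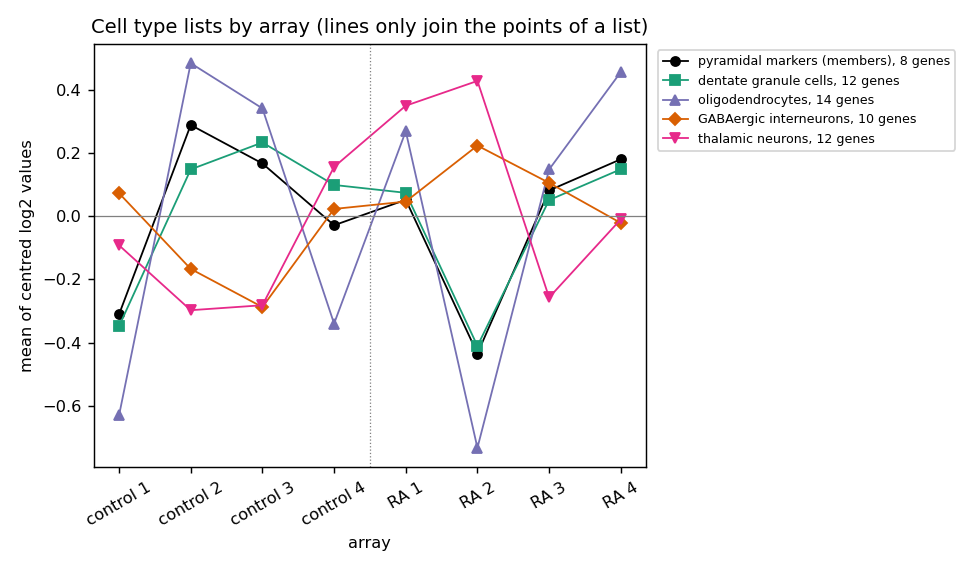
Mean of the centred log2 values of each gene list in each array (x axis, control arrays left of the dotted line). The members, the dentate granule cell list and the oligodendrocyte list are lowest in RA 2 (-0.435, -0.411 and -0.734) and low in control 1. The thalamic list is highest in RA 2 (0.430) and lies at -0.092 in control 1.

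Control 1 and RA 2 were the 2 lowest arrays in 1 of 7 striatal, 2 of 9 astrocyte, 0 of 8 microglial and 4 of 17 choroid plexus genes measured. They were the 2 highest in 3 striatal, 2 astrocyte, 1 microglial and 0 choroid plexus genes. Penk, also in the dentate list, is among the 3 striatal genes. Over all probe sets that varied, the shares were 24.1% lowest and 19.4% highest. Of 7 measured striatal genes 1 was called higher (Tac1, also an interneuron call) and 1 lower (Pde10a). Of 9 astrocyte genes 3 were called higher (Aldh1l1, Slc1a3 and Atp1b2). The shares among all probe sets that varied were 11% higher and 6.92% lower. Of 8 microglial genes none was called, the complement genes C1qc and C1qb having the largest log2 fold changes (0.21 and 0.18). All 17 measured choroid plexus genes were called higher, led by Ttr, Kcnj13, Clic6, Sostdc1, Igf2 and Folr1, with a median log2 fold change of 0.421, and limma called none of them. Their centred mean was -0.826, -0.853, 1.44 and -0.817 in control 1 to 4 and -0.169, -0.723, 0.749 and 1.20 in RA 1 to 4, so control 3 was the highest of all arrays and the groups overlapped.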

How the data were processed

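RNA of 8 hippocampal samples, 4 per diet, was hybridised to Affymetrix mouse genome arrays. The authors summarised the probes with FARMS in R 2.10.1 (Bioconductor 2.2, per the submitters' notes), and the deposited values are log2 summaries per probe set. The Methods name FARMS as the normalization, with no further detail on scaling between arrays. FARMS leaves most probe sets nearly constant: 41279 of 45037 had an SD of at most 0.01, and 64 manufacturer controls were left out. Being microarrays, they give no count depth, and the 4 arrays per group limit the precision.

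Gene names come from the platform's annotation, updated to current symbols through gene numbers (34741), as listed (203) or by accession (1). Those naming several genes (932) or none (9160) name no gene here. The deposited log2 values were used unscaled. The rank product, the test of the Methods, was written in Python 3.11.15 with numpy 2.4.6 (100 permutations, threshold 0.05), and limma 3.58.1 in R 4.3.3 gave fold changes, SE, 95% intervals and Benjamini-Hochberg adjusted p-values over all probe sets. Both were run on simulated data with noise drawn independently for each probe set. That simulation does not cover the movement shared between probe sets seen in these arrays. Correlations over arrays used exact permutation tests (scipy 1.17.1, 2-sided). A gene is represented by its measured probe set with the highest mean.

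Named were all members, in other lists the called genes (at most 6 by fold change, plus Cux1, or the 2 with the largest fold change where none was called), and the 5 genes most like and the 5 most opposed to the members' mean. The members and lists were chosen with earlier results of these data known. Alternatives were quantile scaling, median subtraction, filters, single arrays left out, a replicate block, other thresholds and the methods' t-test.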

Additional observations from a re-analysis of the deposited data

Results flagged for a closer look

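Neurod6 in RA 2 stood apart from the rest of its group. It read 7.92 on the log2 scale where the other 3 RA arrays read 9.14 to 9.25, and the gap to the nearest of them was 0.917 of the group's range, above Dixon's 95% critical value for 4 samples. It was the only such value among the 20 groups of 4 looked at, and chance flags about 1 in 20. Pou3f1, Man1a, Fibcd1, Bok and Cpne4 were also lowest in RA 2 within the RA group, without passing that value.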

How the results depend on the processing

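The single lower call by the rank product, that of Neurod6, became 0 when only probe sets with an SD above 0.01 were ranked, at a threshold of 0.01, with limma in its place, with the methods' t-test before and after Benjamini-Hochberg adjustment, and without control 1 and RA 2 together (chosen after seeing the data). On leaving out each array in turn the count ran from 0 (without control 2, control 3 or RA 2) to 2 (without control 1, RA 3 or RA 4). It was 1 under quantile normalization, subtraction of array medians and a filter on low means. Higher calls and limma calls stayed at 0 under every alternative run. The cause of the lost calls was not tested.

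The log2 fold changes on leaving out each array in turn ran from -0.25 to 0.18 in Wfs1, -0.40 to 0.16 in Pou3f1, 0.01 to 0.15 in Mpped1, -0.62 to 0.017 in Neurod6, -0.13 to 0.038 in Fibcd1, -0.13 to 0.26 in Bok, -0.20 to 0.087 in Man1a and -0.24 to -0.022 in Cpne4. Without control 1 and RA 2 together, Wfs1 was at 0.20. The median absolute correlation over the 28 pairs of members was 0.856, and 0.659 without control 1 and RA 2, which are also the 2 arrays farthest from the median of the members' mean. The median log2 fold change over the members ran from -0.22 to 0.087 on leaving out each array in turn. Its sign turned without control 2, control 3 or RA 2, by less than the spread between replicates.

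The replicate numbers of the labels did not pair the arrays: deviations of same-numbered arrays from their group means correlated at -0.122, -0.328, 0.448 and -0.393. With the replicate block limma called 0 member probe sets; in this balanced design the block cannot move a fold change.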

Other observations

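Among the 32 other pyramidal and excitatory forebrain genes measured, control 3 was the lowest array in 12 and the highest in 10. Those lowest in control 3 were Ccn3, Coch, Cux1, Cux2, Fezf2, Lamp5, Mef2c, Meis2, Necab2, Pcp4, Slc17a6 and Tyro3, and Wfs1 and Mpped1 of the members were lowest there too. Control 3 was the lowest array in 33.8% and the highest in 14.3% of the probe sets that varied. Mef2c, a transcription factor of cortical and hippocampal neurons, read 10.12, 9.49, 8.67 and 10.08 in control 1 to 4 and 9.98, 10.16, 10.00 and 9.51 in RA 1 to 4. Its higher call in the RA group was thus made with control 3 well below all other arrays, and its limma adjusted p was 0.783.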
